A study of Mus musculus with 17 samples.

Results

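The comparison sets eosinophils of the esophagus against eosinophils of the bone marrow, both from wildtype mice fed doxycycline (Dox). Its members are 6 of the 17 arrays analysed, chosen by the tissue, genotype and treatment in their titles: 3 of esophagus, wildtype, Dox and 3 of bone marrow, wildtype, Dox. The mice were CC10-IL13Tg/Pirb+/+ littermates of CC10-IL13Tg/Pirb-/- animals, of both sexes and 6 to 8 weeks old, and Dox food over 2 weeks switched on the interleukin-13 (IL-13) transgene. Both groups therefore carried the transgene and both had Dox, so the comparison is of tissues and not of mice with and without Dox. The CC10 promoter is that of an airway club cell gene. No esophageal array without Dox was analysed here. The sort took CD45+, Siglec-F+, CCR3+ cells, after collagenase digestion of the esophagus and after passage of the marrow through a needle, with no enzyme named. The mode of dissociation and the tissue therefore cannot be told apart in any difference below. Another set of 6 arrays, from Pirb-/- littermates with the same tissues and Dox, serves only as a counterpart. Pirb encodes an inhibitory receptor of myeloid cells.

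Eosinophils are granulocytes that form in the bone marrow from myeloid progenitors, chiefly under interleukin-5. During maturation they fill with granules of cationic proteins and ribonucleases, stop dividing and leave for the blood. Eotaxins, which bind CCR3, draw them into tissue, and IL-13, acting through STAT6, induces eotaxins in epithelial cells. Esophageal eosinophils are a hallmark of eosinophilic esophagitis.

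All values are deposited log values, taken as log2, that give the distance of an array from the middle array of each probe set. A value near 0 is thus the middle level of the series and not a low signal, and the levels of different genes cannot be ranked. Differences are esophagus minus marrow, with the standard error (SE) of a limma fit to the 6 arrays, and a gene passed at an adjusted p under 0.05 over 22180 genes. Correlations across genes between arrays of a tissue ran from 0.553 to 0.678 in the esophagus and from 0.253 to 0.409 in marrow. Most arrays of the series are marrow and values are centred per probe set. These correlations therefore do not rank the tissues by the agreement of their replicates. The spread around the group mean was wider in esophageal arrays, with SDs of 0.27 to 0.32, than in marrow arrays, with 0.17 to 0.18. The median difference of all genes was 0.14, with 15518 of 22180 genes above 0, and the medians of gene groups are to be read against it. The labels do not give the sex of a sample. The Y-linked genes Uty (-1.02, adjusted p = 0.0433) and Kdm5d (-1.17, adjusted p = 0.0477) were lower in the esophagus, while Eif2s3y (0.77, adjusted p = 0.230) did not pass, and Xist differed by 0.20 (adjusted p = 0.157). The calls of Uty and Kdm5d ended without single arrays (adjusted p up to 0.153). When the mean of Uty, Kdm5d and Eif2s3y entered the fit as a covariate, 1060 genes passed. These genes differed in sign and the covariate costs a degree of freedom. The count therefore does not show how far the calls depend on sex.

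Of the 22180 genes, 2988 (13.5%) passed, 1428 of them higher (6.44%) and 1560 lower (7.03%) in the esophagus. The counts of the gene lists below are to be read against these shares. The lower genes differed more: 1041 of them, against 228 of the higher ones, differed over 2-fold. With array medians set equal, 616 genes passed as higher and 1680 as lower, and after quantile normalization 318 and 1301. The 3 esophageal arrays lay wholly above the 3 marrow arrays in 7309 genes (33.0%) and wholly below in 2905 (13.1%). The number of calls also hung on single arrays. Without esophageal replicate 1, 2 or 3 it was 4668, 2014 and 1538, and without marrow replicate 1, 2 or 3 it was 832, 994 and 1070. Of the 160 named genes that passed, 88 passed whichever array was left out. In the other 72 a marrow array was among those whose removal ended the call, and in 49 of them an esophageal array as well, and those genes are named below with their adjusted p. In bulk RNA of sorted cells, fewer cells of a type and less RNA per cell cannot be told apart.

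The highest difference was that of Ptgs2, the inducible cyclooxygenase that makes prostaglandin precursors, with 5.49, 4.69 and 5.32 in the esophageal arrays, against -0.67, -0.78 and -0.85 in the marrow arrays. It was 61.2-fold higher in the esophagus, by 5.94 ± 0.21 (adjusted p = 0.000150). Serpinb2, plasminogen activator inhibitor-2, had 5.89, 5.41 and 5.60 in the esophagus, against -0.33, -0.25 and 0.01 in marrow, a 56.6-fold difference (5.82 ± 0.16, adjusted p = 8.18e-05). At the other end, Camp, the antimicrobial peptide cathelicidin of neutrophil granules, had -6.26, -5.99 and -6.26 in the esophagus, against 0.16, 0.02 and 0.30 in marrow. It was 80.5-fold lower in the esophagus (-6.33 ± 0.12, adjusted p = 2.07e-05). Each of these genes separated the arrays of both tissues by more than 5 units, while the arrays of a tissue differed by less than 1.

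**Figure D1:**
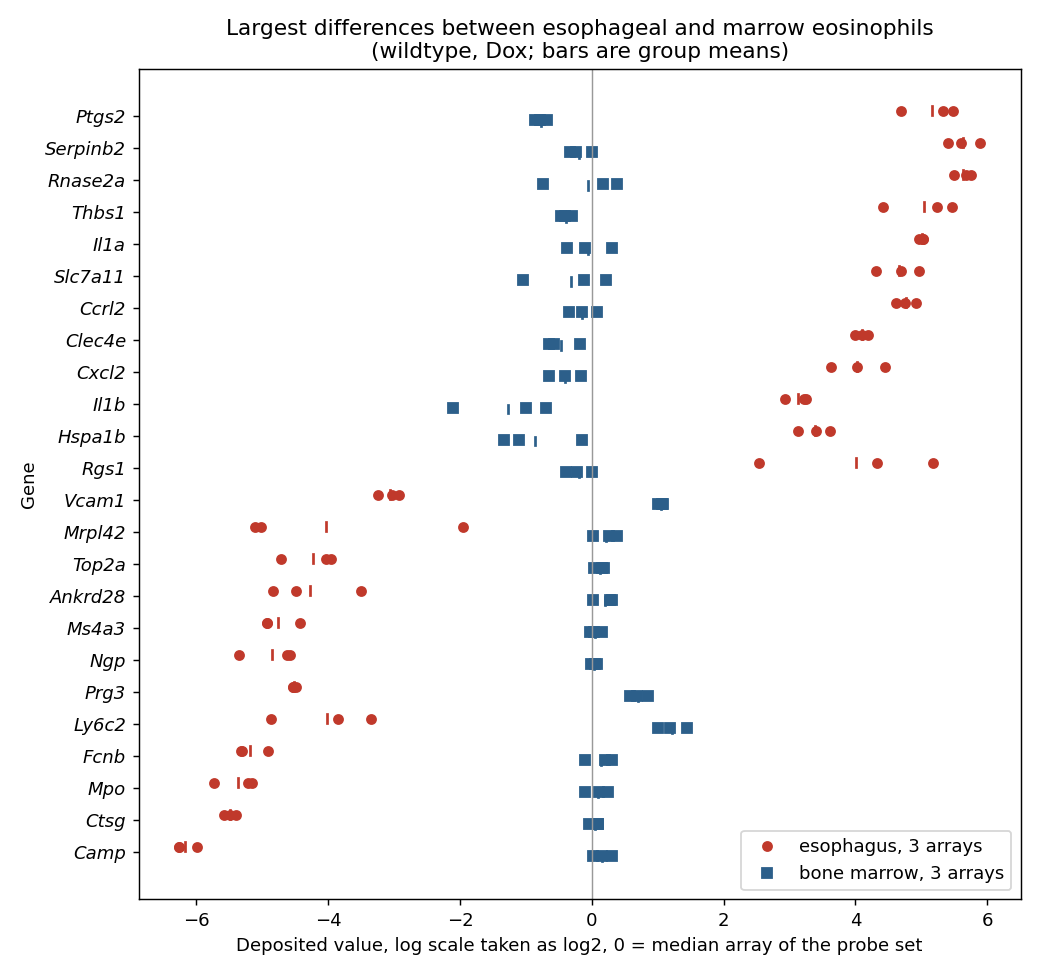
Deposited log2 values, with 0 at the middle array of each probe set, of the 12 named genes with the highest and the 12 with the lowest difference in wildtype mice with Dox. Red circles are the 3 esophageal arrays, blue squares the 3 marrow arrays and bars the group means; in all 24 genes the tissues do not overlap, and Mrpl42 and Rgs1 have the widest spread among esophageal arrays.

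The genes that define the cells were checked first. Siglecf, Ccr3 and Ptprc encode the proteins of the sorting gate, so their values are no finding. Siglecf differed by 0.32 ± 0.12 (adjusted p = 0.127), Ccr3 by 0.64 ± 0.23 (adjusted p = 0.103) and Ptprc, which encodes CD45, by 0.82 ± 0.17 (adjusted p = 0.0351). The list of 15 eosinophil surface receptors includes these gate genes and Pirb. Of the 15, 8 passed as higher, Ptprc among them, and 0 as lower, with a median of 0.97. After median centring or quantile normalization 4 of the 15 passed, and without marrow replicate 1, 2 or 3, 2, 2 and 3 of them. P2ry10, a lysophospholipid receptor, had 2.82, 2.13 and 2.51 in the esophageal arrays, against -0.31, -0.13 and 0.05 in the marrow arrays (2.61 ± 0.20, adjusted p = 0.00153). Adgre1, which encodes F4/80 and is found on mouse eosinophils as well as macrophages, rose by 1.64 ± 0.18 (adjusted p = 0.00538). Olr1, an oxidized lipoprotein receptor, rose by 1.62 ± 0.27 (adjusted p = 0.0188). The calls of Ptprc and Olr1 ended without single arrays, with adjusted p up to 0.107 and 0.0702. Il5ra, the specific chain of the interleukin-5 receptor, had 1.69, 1.10 and -0.05 in the esophagus, against 0.05, -0.08 and -0.37 in marrow. Its groups overlapped, and the difference of 1.05 ± 0.43 did not pass (adjusted p = 0.141). Pirb had 2.17, 0.75 and 0.92 in the esophagus, against -0.21, -0.55 and 0.01 in marrow. The tissues did not overlap, but the difference of 1.53 ± 0.39 stood just outside the threshold (adjusted p = 0.0544).

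Several granule protein genes were lower in esophageal eosinophils. Of 8 measured members, Prg3, Prg2, Epx and Ear6 passed as lower and Rnase2a as higher, with a median of -1.71. Prg3, a homolog of major basic protein, had -4.49, -4.53 and -4.53 in the esophagus, against 0.59, 0.85 and 0.69 in marrow, a 37.4-fold difference (-5.22 ± 0.09, adjusted p = 2.07e-05). Epx, eosinophil peroxidase, had -2.06, -1.99 and -1.97 in the esophagus, against 1.23, 1.74 and 1.52 in marrow (-3.50 ± 0.14, adjusted p = 0.000204). Both genes were nearly equal among arrays of the esophagus. Prg2, major basic protein itself, had -2.32, -3.89 and -3.66 in the esophagus, against 0.20, 0.24 and 0.29 in marrow (-3.53 ± 0.41, adjusted p = 0.00630). Ear6, a ribonuclease, fell by 1.39, a call that ended without single arrays (adjusted p up to 0.114). Rnase2a, a ribonuclease of the same eosinophil-associated family, went the other way: it had 5.67, 5.75 and 5.49 in the esophagus, against 0.17, 0.39 and -0.73 in marrow. That is 51.8-fold higher in the esophagus (5.70 ± 0.30, adjusted p = 0.000506). The family holds near-identical copies, so a probe set may read more than its named member, and Rnase2b (0.40) did not pass.

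Genes of neutrophil granules and of granulocyte progenitors made up 6 of the 12 lowest differences. Of 20 neutrophil and precursor markers, 12 passed as lower and 1 as higher, with a median of -2.37. Their summed values ran from -55.3 to -43.3 in the esophageal arrays, against 2.72 to 5.52 in the marrow arrays. Mpo, myeloperoxidase of primary granules, had -5.15, -5.21 and -5.73 in the esophagus, against 0.12, 0.25 and -0.09 in marrow (-5.45 ± 0.18, adjusted p = 0.000129). Ctsg, the serine protease cathepsin G, had -5.58, -5.49 and -5.39 in the esophagus, against 0.09, 0.09 and -0.05 in marrow (-5.53 ± 0.09, adjusted p = 2.07e-05). Ms4a3, a marker of granulocyte-monocyte progenitors, fell 28.1-fold (-4.81 ± 0.16). Fcnb (ficolin B), Ngp (neutrophilic granule protein) and Ltf (lactoferrin) fell by 5.32, 4.90 and 4.05. Markers of mature neutrophils were not higher in the esophagus: Csf3r fell by 0.95 (without single arrays, adjusted p up to 0.133), and Cxcr2 (-1.11), Ly6g (-2.47) and S100a8 (-2.93) did not pass. The exception was Retnlg, a resistin-like secreted protein, with 1.79, 1.27 and 1.12 in the esophagus, against -0.99, -0.65 and -0.11 in marrow (1.98 ± 0.27, adjusted p = 0.0113). Retnlg did not pass after quantile normalization.

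Some markers of monocytes and macrophages and of mast cells and basophils were lower as well. Of 17 monocyte and macrophage markers, 6 passed as lower and 1 as higher (4 to 6 and 0 or 1 without single arrays), and the summed values were -8.04 to -4.86 in the esophagus, against 7.74 to 9.71 in marrow. Ly6c2, a surface antigen of monocytes and progenitors with near-identical paralogs, had -4.86, -3.35 and -3.85 in the esophagus, against 1.44, 1.00 and 1.19 in marrow. Mertk, a receptor for the uptake of dead cells, fell by 2.94 ± 0.20 and Cd68, a lysosomal protein of phagocytes, by 1.90 ± 0.21. The resident macrophage genes C1qa (-0.33), C1qb (-0.16) and Csf1r (-0.19) did not pass. Cd14, a lipopolysaccharide co-receptor, rose by 1.18 ± 0.22, with adjusted p up to 0.0879 when single arrays were left out. Of 12 mast cell and basophil markers, 4 passed as lower and 0 as higher, but 7 had a positive difference and the median was 0.09 (-0.02 after median centring or quantile normalization). The sums were -8.70 to -8.11 in the esophagus, against 1.86 to 3.18 in marrow. The 4 lower markers were Mcpt8, a basophil protease (-4.01 ± 0.13), Cpa3, carboxypeptidase A3 (-3.87 ± 0.14), Kit, the stem cell factor receptor (-2.11 ± 0.23), and Ms4a2, the beta chain of the IgE receptor (-2.05, but adjusted p = 0.0540 without marrow replicate 2). Vcam1, an adhesion ligand of alpha-4 integrins and no member of a list, had -3.02, -3.25 and -2.93 in the esophagus, against 1.00, 1.07 and 1.08 in marrow (-4.11 ± 0.10, adjusted p = 7.21e-05). Whether these genes were read in eosinophils, their precursors or other sorted cells was not tested, and centred values do not show which markers are absent.

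Few markers of the tissue that surrounds eosinophils in the esophagus passed, although most had small positive differences. Of 12 stromal markers, all 12 were positive, 10 had esophageal arrays wholly above marrow arrays and 9 had an unadjusted p under 0.05, with a median of 0.39. Of 16 epithelial markers, 15 were positive, 9 were wholly above and 7 had an unadjusted p under 0.05, with a median of 0.33. Over all 22180 genes, 15518 were positive, 33.0% were wholly above and 8025 had an unadjusted p under 0.05, with a median of 0.14. Of the squamous epithelium markers, Klf5 alone passed (0.46 ± 0.11, adjusted p = 0.0487), and the sums were -0.0534 to 7.08 in the esophagus, against -2.77 to -0.889 in marrow. Sprr1a, a cornified envelope protein, had the highest value of that list (1.48) and did not pass. Of the markers of fibroblasts, smooth muscle and endothelium, Col1a2, a collagen I chain, passed (0.63 ± 0.14, adjusted p = 0.0379), with sums of 2.58 to 5.43 in the esophagus, against -1.73 to -0.955 in marrow. Of 12 T and NK cell markers, Cd2 passed as higher (0.70) and Nkg7, a cytotoxic granule protein, as lower (-3.33 ± 0.21), and their sums overlapped, at -3.16 to 2.15 in the esophagus and -0.157 to 0.639 in marrow. No B cell marker of 9 and no erythroid or megakaryocyte marker of 9 passed in limma, with overlapping sums in both lists. In either list 4 of 9 had an unadjusted p under 0.05, as had 8025 of all 22180 genes in the same fit. Of the B cell, erythroid and megakaryocyte markers, Cd79b (-0.83, adjusted p = 0.0726) and Pf4 (0.98, adjusted p = 0.0578) came nearest. Of 7 dendritic cell markers, Cd209a, a C-type lectin, passed (0.63 ± 0.11), with sums of 0.627 to 2.44 in the esophagus, against -0.822 to 0.0144 in marrow. Without esophageal replicate 1, in turn, 6 of the 16 epithelial and 3 of the 12 stromal markers passed as higher. Without single arrays the calls of Klf5, Col1a2, Cd2 and Cd209a ended, with adjusted p up to 0.154, 0.130, 0.103 and 0.0943. The summed epithelial, stromal and dendritic lists were thus slightly higher in esophageal arrays, but the sums include the general shift of all genes. After median centring the medians of these lists were 0.23, 0.28 and 0.13, against 0.03 for all genes. The part of such cells in the genes that rose was not tested.

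**Figure D2:**
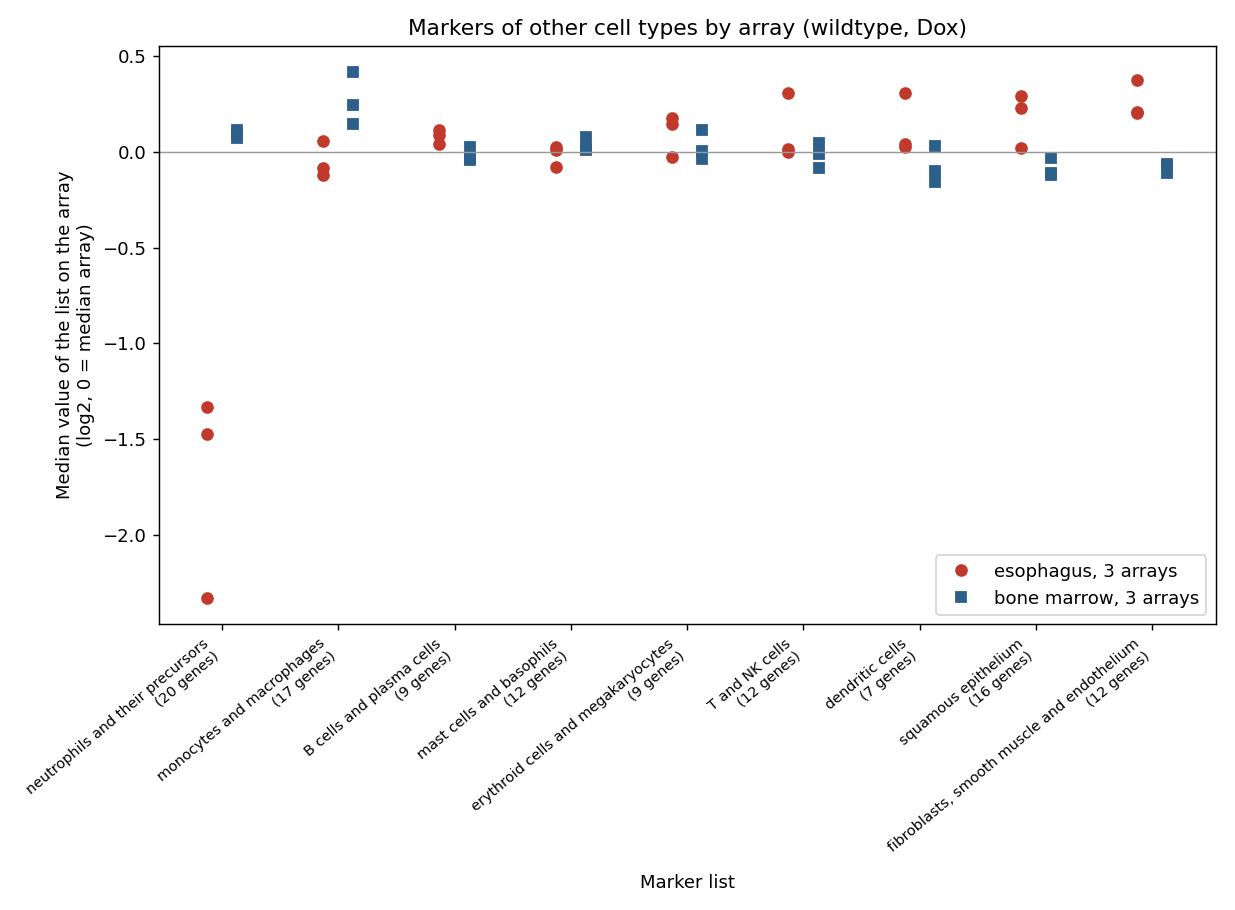
Median log2 value, with 0 at the middle array, of 9 lists of markers of other cell types on each wildtype Dox array. Red circles are the 3 esophageal arrays and blue squares the 3 marrow arrays; the neutrophil and precursor list is lowest in the esophagus, and the other lists lie within 0.5 of 0.

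Proliferation genes were lower in esophageal eosinophils. Of 40 cell cycle and DNA replication genes, 32 passed as lower (26 to 32 without single arrays) and 0 as higher, with a median of -2.22. The esophageal arrays lay wholly below the marrow arrays in 35 of the 40, against 13.1% of all genes. Top2a, the topoisomerase that untangles DNA in mitosis, had -3.96, -4.72 and -4.03 in the esophagus, against 0.19, 0.04 and 0.15 in marrow, a 20.6-fold difference (-4.36 ± 0.21, adjusted p = 0.000435). Mcm6, a subunit of the replicative helicase, had -3.87, -3.94 and -3.48 in the esophagus, against 0.27, 0.27 and 0.18 in marrow (-4.01 ± 0.14, adjusted p = 0.000137). The mitotic kinesin Kif11 fell by 3.91 ± 0.15 and the spindle protein Tpx2 by 2.85 ± 0.11. The members that did not pass ranged from -1.19 for Cdk2 to 0.23 for Ccne1. The summed neutrophil and precursor markers above, and the mast cell and basophil genes Mcpt8, Cpa3, Kit and Ms4a2, were lower in the same arrays, and their part in this difference was not tested. With Cdkn1a, the cell cycle inhibitor p21, the order was opposite: it had 2.38, 1.75 and 2.57 in the esophagus, against -0.04, -0.01 and -0.17 in marrow (2.31 ± 0.22, adjusted p = 0.00340).

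Promoters of replication genes often carry E2F and CCAAT motifs. The promoter windows of Mcm6 and Top2a are shown because both genes are described above, Mcm6 holding E2F and CCAAT motifs and Top2a CCAAT motifs but no E2F match. Each runs from 250 bases before to 50 after the RefSeq transcription start, on the minus strand of GRCm38.p6 (sequence from RefSeq), at chr1:128359656-128359955 for Mcm6 and chr11:99024140-99024439 for Top2a. Capitals mark E2F motifs (TTTGGCGC or TTTCCCGC) in Mcm6 and CCAAT motifs in Top2a, on either strand.
Mcm6: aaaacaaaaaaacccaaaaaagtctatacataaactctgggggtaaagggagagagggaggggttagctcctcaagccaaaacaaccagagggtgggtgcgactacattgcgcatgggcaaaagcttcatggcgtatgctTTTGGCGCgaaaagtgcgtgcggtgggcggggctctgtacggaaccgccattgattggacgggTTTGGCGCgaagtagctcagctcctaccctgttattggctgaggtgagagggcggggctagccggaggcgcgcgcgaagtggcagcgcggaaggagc
Top2a: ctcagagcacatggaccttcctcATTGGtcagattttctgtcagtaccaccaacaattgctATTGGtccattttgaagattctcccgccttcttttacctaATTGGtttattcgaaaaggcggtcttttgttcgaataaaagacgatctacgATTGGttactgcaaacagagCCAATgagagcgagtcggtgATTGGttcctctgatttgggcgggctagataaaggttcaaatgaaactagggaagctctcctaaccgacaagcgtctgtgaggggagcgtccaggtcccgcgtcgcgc
Mcm6 holds 2 E2F matches, the first at position -110 from the transcription start, and Top2a holds 6 CCAAT matches, the first at position -227. Over all genes tested, 2.08% of 20611 such windows held an E2F match. The share was 1.6% of the 1314 windows of genes that rose and 4.84% of the 1487 windows of genes that fell. A CCAAT match stood in 31.2% of the windows of genes that rose, 43.6% of those of genes that fell and 37.7% of all. These shares are descriptions of letters in short windows and say nothing of factor binding.

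The enzymes of lipid mediators changed in both directions. Of 16 prostaglandin and leukotriene genes, 5 passed as higher and 3 as lower, with a median of 0.45. Beside Ptgs2, those that rose were Alox15, the 12/15-lipoxygenase (2.95), Cyp4f18, which oxidizes leukotriene B4 (2.57 ± 0.32), Pla2g7, which degrades platelet-activating factor (2.39 ± 0.34), and Alox5, the 5-lipoxygenase (1.56). Hpgds, which makes prostaglandin D2 in hematopoietic cells, had -1.18, -0.79 and -0.80 in the esophagus, against 1.47, 1.59 and 1.25 in marrow (-2.36 ± 0.15, adjusted p = 0.000994). Hpgd, which inactivates prostaglandins, had -0.37, -1.24 and -1.41 in the esophagus, against 1.22, 1.05 and 1.56 in marrow (-2.29 ± 0.30, adjusted p = 0.00913). Lta4h, the leukotriene B4 synthase, fell by 1.32 ± 0.29. Ptgs2 RNA was thus higher together with lower Hpgds and Hpgd RNA, and the arrays do not measure the enzymes or their products. Ltc4s, the leukotriene C4 synthase typical of eosinophils, differed by 0.53 and did not pass. Without marrow replicate 1, 2 or 3, 3 of the 16 passed as higher each time and 2 as lower. Without single arrays the calls of Alox15, Alox5 and Lta4h ended, with adjusted p up to 0.0847, 0.0830 and 0.133.

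Interleukin-1 genes headed the cytokine list. Of 25 cytokines and growth factors, 8 passed as higher and Il18 as lower, with a median of 0.48. Il1a had 4.96, 5.03 and 5.02 in the esophagus, against -0.37, 0.31 and -0.11 in marrow, a 33.4-fold difference (5.06 ± 0.18, adjusted p = 0.000142). Il1b had 3.25, 2.92 and 3.22 in the esophagus, against -0.69, -1.004 and -2.11 in marrow (4.40 ± 0.37, adjusted p = 0.00219). The antagonist of both, Il1rn, rose too, with 3.11, 1.95 and 2.95 in the esophagus, against -0.29, -0.67 and -0.29 in marrow (3.09 ± 0.32, adjusted p = 0.00462). Il1r2, the decoy receptor, rose by 2.71 ± 0.30 (adjusted p = 0.00553). Il18, another interleukin-1 family member, had -1.62, -1.49 and -1.68 in the esophagus, against 1.59, 1.61 and 1.76 in marrow (-3.25 ± 0.09, adjusted p = 8.18e-05). The family was thus split, with ligands, antagonist and decoy higher and Il18 lower. Il4, the type 2 cytokine that eosinophils can store, rose by 2.37, and Csf1, the macrophage growth factor, by 1.22 ± 0.12. Il5 (0.48), Hbegf (0.66) and Osm (1.27) made up the rest of the 8. Without marrow replicate 1, 2 or 3 the higher members numbered 4, 5 and 4, and without esophageal replicate 1 they numbered 13. The calls of Il4, Il5, Osm and Hbegf did not survive the loss of single arrays, with adjusted p up to 0.0839, 0.121, 0.119 and 0.0873. Tnf (0.25), Il6 (1.89) and Il13 (0.36) did not pass.

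Chemokine ligands leaned higher. Of 20 inflammatory chemokines, 8 passed as higher and 0 as lower, with a median of 1.26 and a positive difference in all 20. Without marrow replicate 1, 2 or 3 the higher members numbered 4, 4 and 5, and without esophageal replicate 1 they numbered 12. Cxcl2, a neutrophil attractant, had 4.02, 3.62 and 4.45 in the esophagus, against -0.41, -0.16 and -0.65 in marrow (4.44 ± 0.24, adjusted p = 0.000544). Ccl3, an inflammatory chemokine, had 3.87, 2.91 and 2.73 in the esophagus, against -0.19, -0.51 and -0.12 in marrow (3.44 ± 0.31, adjusted p = 0.00290). Ccl6, a CCR1 ligand of rodents, rose by 3.05 ± 0.15 (adjusted p = 0.000448). The eotaxin genes Ccl11 (0.68) and Ccl24 (1.39) did not pass. Among 22 chemoattractant receptors, 4 passed as higher and 0 as lower, with a median of 0.18. P2ry14, a receptor for UDP-glucose, rose by 2.17 ± 0.24, Ptafr, the receptor for platelet-activating factor, by 2.03 ± 0.21, C3ar1, the anaphylatoxin C3a receptor, by 1.82 ± 0.29 and Cxcr4, the marrow-retention receptor, by 0.78. The calls of C3ar1 and Cxcr4 ended without single arrays (adjusted p up to 0.0699 and 0.122), and without marrow replicate 1 or 2 2 of the list passed. Ptgdr2, the prostaglandin D2 receptor, was not among the genes measured singly. Ccrl2, an atypical receptor that binds chemerin, had 4.92, 4.61 and 4.75 in the esophagus, against 0.07, -0.35 and -0.15 in marrow (4.90 ± 0.14, adjusted p = 8.18e-05).

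Genes of the NF-kB circuit, which switches on inflammatory genes and its own inhibitors, were higher in part. Of 22 subunits, inhibitors and targets, 11 passed as higher and 0 as lower, with a median of 0.82. Without marrow replicate 1, 2 or 3 the higher members numbered 5, 6 and 6. Tnfaip3 encodes A20, which ends NF-kB signalling, and had 4.22, 3.23 and 4.05 in the esophagus, against -0.19, -0.07 and -0.28 in marrow, a 16.2-fold difference (4.01 ± 0.26, adjusted p = 0.00108). The inhibitor Nfkbia rose by 1.92 ± 0.12 (adjusted p = 0.000977). The subunit Rel had 2.22, 1.92 and 1.90 in the esophagus, against -0.27, -0.34 and -0.05 in marrow (2.23 ± 0.13, adjusted p = 0.000730), while Relb (0.88) and Nfkb2 (0.98) did not pass. The Tnfaip3 promoter is shown because the gene led the list and holds a kB motif. The window lies on the minus strand at chr10:19015361-19015660 (GRCm38.p6, RefSeq), and capitals mark the match to GGGNNTTCC, read on the opposite strand, with its first base at position -12 from the transcription start.
Tnfaip3: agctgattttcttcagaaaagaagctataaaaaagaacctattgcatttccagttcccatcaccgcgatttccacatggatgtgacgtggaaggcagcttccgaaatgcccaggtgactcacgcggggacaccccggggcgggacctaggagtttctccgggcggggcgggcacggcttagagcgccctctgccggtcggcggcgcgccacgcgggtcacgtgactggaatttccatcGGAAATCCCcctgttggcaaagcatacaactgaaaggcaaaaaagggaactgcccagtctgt
A kB match stood in 5.94% of the windows of genes that rose, 8.54% of those of genes that fell and 6.28% of all. The share among genes that rose was thus near that of all genes.

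Immediate-early genes, which respond quickly to many stimuli, were higher in part. Esophageal arrays lay wholly above marrow arrays in 24 of 29, against 33.0% of all genes. Of the 29, 14 passed as higher and 0 as lower, with a median of 1.30. Median centring left 9 and quantile normalization 8. Without marrow replicate 1, 2 or 3 the higher members numbered 5, 4 and 7. Without esophageal replicate 1, 2 or 3 they numbered 16, 19 and 8. Dusp1, a phosphatase that turns off MAP kinases, had 2.02, 1.74 and 1.93 in the esophagus, against -0.43, -0.33 and -0.44 in marrow (2.30 ± 0.10, adjusted p = 0.000276). Dusp5 rose by 2.13 ± 0.12 and the AP-1 subunit Junb by 1.30 ± 0.12. Rgs1, which shortens G protein signals, varied more, with 5.18, 4.32 and 2.54 in the esophagus, against 0.00, -0.22 and -0.38 in marrow (4.21 ± 0.64, adjusted p = 0.0154). Without any 1 of the marrow arrays it did not pass (adjusted p up to 0.0610). Fos (1.00), Jun (0.59) and Myc (-0.57) did not pass. A pair of inducible heat shock genes moved with them. Hspa1b had 3.61, 3.41 and 3.13 in the esophagus, against -0.15, -1.11 and -1.34 in marrow (4.25 ± 0.32, adjusted p = 0.00162). Its near-identical copy Hspa1a differed by 4.20 ± 0.59, and probe set signal of the pair cannot be assigned with certainty. For both groups, collagenase digestion and the esophagus itself cannot be told apart. AP-1 motifs (TGANTCA) stood in 7.38% of the windows of genes that rose, 4.17% of those of genes that fell and 7.26% of all. The CRE motif (TGACGTCA) stood in 2.13%, 2.49% and 2.32%.

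The response to IL-13 and interleukin-4 was examined through receptor chains and STAT6 target genes. Of 31, 9 passed as higher (29.03%, against 6.44% of all genes) and 2 as lower (6.452%, against 7.03%), with a median of 0.44. The share of lower calls was thus near that of all genes. Quantile normalization left 3 higher and 1 lower. Without any 1 of the marrow arrays 3 passed as higher. Il4ra, the shared receptor chain, had 0.58, -0.05 and 0.57 in the esophagus, against 0.15, 0.10 and 0.80 in marrow. The tissues overlapped (0.01 ± 0.26, adjusted p = 0.971). Il13ra1, the IL-13 chain, overlapped as well (0.27 ± 0.39, adjusted p = 0.608). Retnla, a secreted resistin-like protein of type 2 inflammation, had 2.98, 3.15 and 2.96 in the esophagus, against 1.68, 0.55 and 0.86 in marrow (1.996 ± 0.29, adjusted p = 0.0127). Tgm2, a transglutaminase, rose by 3.15. Arg1 (1.64), Chil3 (-1.35) and Ccl17 (1.44) did not pass. Pparg, a lipid-sensing nuclear receptor, had -0.77, -0.44 and -0.68 in the esophagus, against 1.22, 1.45 and 2.21 in marrow (-2.26 ± 0.26, adjusted p = 0.00659), and the mannose receptor Mrc1 fell by 0.46 ± 0.11. Retnla did not pass without marrow replicate 3 (adjusted p = 0.0529), and Tgm2 and Mrc1 did not without single arrays (adjusted p up to 0.0655 and 0.148). Both groups had Dox, so these differences are between tissues and not between mice with and without Dox. The STAT6 motif, TTC and GAA with 4 bases between them, stood in 5.48% of the windows of genes that rose, 6.99% of those of genes that fell and 6.41% of all.

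Genes of the interleukin-5 and GM-CSF receptor pathway, which acts through STAT5, were higher in part. The list holds components of the pathway (Csf2rb, Jak2, Stat5a and Stat5b) beside response genes. Of 18, 8 passed as higher and 0 as lower, with a median of 0.40 and 6 negative differences. Over the 13 genes with 1 probe set, 3 passed and the median was 0.07, while quantile normalization left 5 of the 18. Without any 1 of the marrow arrays 3 passed as higher, and without esophageal replicate 2 or 3, 5 and 4. Socs3, a suppressor of cytokine signalling, had 1.49, 1.32 and 1.39 in the esophagus, against -0.02, -0.18 and -0.36 in marrow (1.58 ± 0.11, adjusted p = 0.00128). Cish, its relative, had 1.15, 2.08 and 1.87 in the esophagus, against -0.14, -0.16 and -0.03 in marrow (1.81 ± 0.24, adjusted p = 0.0100). Mcl1, a survival protein of the BCL-2 family, rose by 0.81 ± 0.10. Of the 22 survival and cell death genes, 8 passed as higher and 2 as lower, with a median of 0.23. With any 1 of the marrow arrays left out, 4 passed as higher and 0 as lower. The genes that rose included Bcl2l11, the pro-apoptotic BIM, with 2.09, 1.81 and 2.56 in the esophagus, against -0.51, -0.20 and -0.70 in marrow (2.62 ± 0.22, adjusted p = 0.00246). Fas, a death receptor, rose by 2.50 and Birc3, an inhibitor of apoptosis, by 2.23. Genes for and against cell death thus rose side by side. Casp8, the initiator caspase, fell by 0.80 ± 0.19 and Bcl2 by 0.41 ± 0.09. Fas, Casp8 and Bcl2 lost their calls without single arrays (adjusted p up to 0.0740, 0.131 and 0.144).

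Matrix, coagulation and protease genes were higher in 6 of 21, with 0 lower and a median of 0.71. Thbs1, the matrix glycoprotein thrombospondin-1, had 5.47, 4.42 and 5.23 in the esophagus, against -0.29, -0.41 and -0.47 in marrow, a 43.1-fold difference (5.43 ± 0.27, adjusted p = 0.000448). F5, coagulation factor V, had 3.09, 2.48 and 2.76 in the esophagus, against 0.11, -0.35 and -0.08 in marrow (2.89 ± 0.19, adjusted p = 0.00109). Fibronectin, Fn1, rose by 2.58, and thrombomodulin, Thbd, by 0.71. Tgfbi, a secreted matrix protein, rose by 0.79 ± 0.08. Timp1 (0.13), Mmp9 (0.74) and Spp1, which was not measured singly, gave no call. Among 20 adhesion genes, 5 passed as higher (25%, against 6.44% of all genes) and 1 as lower (5%, against 7.03%), with a median of 0.59. Itga4, the alpha-4 chain of the VCAM-1 receptor, rose by 1.47 ± 0.22, its partner Itgb7 by 0.93 ± 0.11 and the tetraspanin Cd9 by 0.97 ± 0.14. Itgad, the alpha-D integrin, had -1.01, -0.11 and -0.66 in the esophagus, against 0.76, 0.95 and 1.47 in marrow (-1.66 ± 0.28, adjusted p = 0.0211). With single arrays left out, the calls of Thbd, Itgad and Cd9 ended, with adjusted p up to 0.0922, 0.0668 and 0.0519. Only 2 adhesion genes passed without any 1 of the marrow arrays, and 11 without esophageal replicate 2.

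Transcription regulators were divided. Of 22, 7 passed as higher and 4 as lower, and their median of 0.01 turned negative after median centring (-0.09) and quantile normalization (-0.04). Ahr, the aryl hydrocarbon receptor, had 3.75, 3.10 and 3.74 in the esophagus, against 0.07, -0.07 and -0.11 in marrow, an 11.8-fold difference (3.56 ± 0.19, adjusted p = 0.000566). Trib1, a pseudokinase that controls C/EBP proteins, had 2.75, 1.57 and 2.65 in the esophagus, against -0.35, -0.16 and -0.19 in marrow (2.56 ± 0.32, adjusted p = 0.00793). Cebpb rose by 1.11 ± 0.13, whereas Cebpa and Cebpe, which act earlier in granulocyte maturation, fell by 0.42 ± 0.08 and 0.49 ± 0.11. Xbp1, which eosinophil precursors need for secretory load, fell by 1.31 ± 0.30, and Etv6, an ETS repressor, fell by 1.94. The 4 lower calls, Cebpa, Cebpe, Xbp1 and Etv6, all ended without single arrays (adjusted p up to 0.142), and 4 genes passed as higher without any 1 of the marrow arrays. Gata1 (0.25) and Gata2 (0.15), the factors that specify the lineage, did not pass.

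Among 22 inhibitory receptors, checkpoint ligands and phosphatases, 4 passed as higher and 2 as lower, and the median of 0.07 was -0.03 after median centring. Cd274, the checkpoint ligand PD-L1, had 2.55, 2.005 and 1.82 in the esophagus, against -0.12, -0.28 and -0.41 in marrow (2.40 ± 0.20, adjusted p = 0.00238). Cd80, a costimulatory ligand, had 3.45, 1.66 and 3.01 in the esophagus, against -0.18, -0.50 and -0.04 in marrow (2.95 ± 0.46, adjusted p = 0.0161). Lilrb4a, an inhibitory receptor with a near-identical paralog, rose by 2.69 ± 0.35, and Pdcd1lg2, PD-L2, by 0.59. Cd47, which blocks uptake by phagocytes, fell by 1.55 ± 0.22 and the lectin Clec4a2 by 1.82 ± 0.31. Of 15 Fc receptors, adaptors and lectins, 4 passed as higher and 2 as lower. Clec4e, which encodes the lectin Mincle, had 3.999, 4.10 and 4.18 in the esophagus, against -0.65, -0.18 and -0.57 in marrow (4.56 ± 0.14, adjusted p = 0.000119). Its neighbour in function Clec4d rose by 1.87, the kinase Syk by 1.53 ± 0.27 and the adaptor Tyrobp by 0.55 ± 0.08. Fcgr1 fell by 1.499 ± 0.20 and Clec5a by 2.72 ± 0.49. Without single arrays, calls ended for Cd80 (adjusted p up to 0.0648), Pdcd1lg2 (0.0927), Cd47 (0.0587), Clec4a2 (0.0847), Clec4d (0.138), Syk (0.0910), Tyrobp (0.0756) and Clec5a (0.0754). The 6 calls of the inhibitory list became 2, 3 and 4 without marrow replicate 1, 2 or 3 and 10 without esophageal replicate 1, and the 6 of the Fc receptor list 3 without any 1 of the marrow arrays.

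Sensors of microbes, antigen presentation and interferon genes changed little. Of 20 Toll-like receptor genes and adaptors, Nod2 (0.51 ± 0.09) and Cd14 passed as higher and Tlr1 (-1.12 ± 0.18) as lower. Of 12 antigen presentation genes, the immunoproteasome subunit Psmb8 passed, at -0.50 ± 0.11. Of 23 interferon-stimulated genes, Isg20 (0.50 ± 0.09) and the chemokine Cxcl10 (0.40 ± 0.08) passed as higher and Ifit2 (-0.82 ± 0.20) as lower. Shares higher and lower were 10% and 5% in the Toll-like list, 0% and 8.33% in antigen presentation and 8.70% and 4.35% in interferon genes. Over all genes they were 6.44% and 7.03%. The medians of these lists, 0.04, 0.05 and 0.09, changed sign after median centring (-0.07, -0.05 and -0.01). None of the calls named here survived every removal of a single array, with the highest adjusted p at 0.157 for Ifit2.

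Oxidative phosphorylation and ribosomal protein genes leaned lower. Of 41 oxidative phosphorylation genes, 9 passed as lower and 0 as higher, with a median of -0.79, and 40 of them had a negative difference. Cox4i1, a subunit of cytochrome c oxidase, had -0.58, -0.45 and -0.72 in the esophagus, against 0.27, 0.20 and 0.17 in marrow (-0.80 ± 0.10, adjusted p = 0.00726). The ATP synthase subunits Atp5a1 and Atp5b fell by 0.73 ± 0.10 and 1.20 ± 0.21. Of 37 cytosolic ribosomal proteins, 10 passed as lower and 0 as higher, with a median of -0.36. When any 1 of the marrow arrays was left out, 2 oxidative phosphorylation and 3 ribosomal genes passed as lower. Rps3 fell by 1.39 ± 0.11, Rpl8 by 1.03 ± 0.11 and Rpl6 by 1.32 ± 0.16. Glycolysis and hypoxia genes did not lean one way, with 3 higher (11.1%) and 4 lower (14.8%) of 27 and 13 positive differences. Over all genes the shares were 6.44% and 7.03%. The glucose transporter Slc2a1 rose by 1.05 ± 0.19, the hypoxia factor Hif1a by 1.03 ± 0.24 and Ddit4, an inhibitor of mTOR signalling, by 0.61 ± 0.10, while the enzymes Tpi1 (-2.35 ± 0.27), Hk3 (-1.13 ± 0.20), Pgk1 (-0.78 ± 0.12) and Gapdh (-0.56) fell. Of 20 lysosome and efferocytosis genes, 5 passed as lower and 0 as higher, among them Axl (-1.85 ± 0.18), Mertk, Npc1, Hexa and Ctss. Of the neutrophil and precursor markers 12 of 20, of the monocyte and macrophage markers 6 of 17 and of the mast cell and basophil markers 4 of 12 were lower in the same arrays, and their part in these lists was not tested. Calls of Atp5b, Slc2a1, Hif1a, Ddit4, Hk3, Pgk1, Gapdh, Npc1, Hexa and Ctss ended without single arrays, with adjusted p up to 0.143. Without any 1 of the marrow arrays 1 glycolysis gene and 2 lysosome genes passed.

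Stress and amino acid genes held large single changes in lists of small medians. Slc7a11, the cystine importer that feeds glutathione synthesis, had 4.97, 4.31 and 4.68 in the esophagus, against -0.12, 0.21 and -1.03 in marrow, a 31.3-fold difference (4.97 ± 0.35, adjusted p = 0.00127). Of the 18 oxidase and antioxidant genes, Slc7a11, Txnrd1 (1.35 ± 0.21), Srxn1 (0.74 ± 0.16) and Ncf1 (1.14) passed as higher. Hmox1, heme oxygenase-1, had -0.71, -0.01 and -0.43 in the esophagus, against 1.32, 1.49 and 1.37 in marrow (-1.78 ± 0.18, adjusted p = 0.00460), and Sod1 (-0.81 ± 0.12) and Gclc (-1.09 ± 0.23) fell too. Their median was 0.07 and turned to -0.04 after median centring. Of 18 unfolded protein and heat shock genes, 4 passed as higher and 2 as lower. Beside the heat shock genes, Ddit3, the stress factor CHOP, rose by 1.05 ± 0.15 and Hspb1 by 0.63, while the reticulum chaperones Calr and Pdia6 fell by 2.04 ± 0.36 and 1.62 ± 0.19. Of 13 arginine, polyamine and itaconate genes, 2 passed as higher (15.4%, against 6.44% of all genes) and 1 as lower (7.69%, against 7.03%). Acod1, which makes itaconate, had 5.38, 4.45 and 1.54 in the esophagus, against -0.36, -0.20 and -0.22 in marrow (4.04 ± 0.94, adjusted p = 0.0439). Its esophageal arrays spread widely, and it did not pass after median centring. Arg2 rose by 1.46 ± 0.32 and the spermidine synthase Srm fell by 0.51 ± 0.08. Of the genes of these 3 lists, Txnrd1, Srxn1, Ncf1, Sod1, Gclc, Hspb1, Calr, Acod1, Arg2 and Srm lost their calls without single arrays, with adjusted p up to 0.151. Without marrow replicate 1, 2 or 3 the 7 oxidase and antioxidant calls became 3, 2 and 2, the 6 unfolded protein and heat shock calls 4 each time and the 3 arginine calls 0, 1 and 0.

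**Figure D3:**
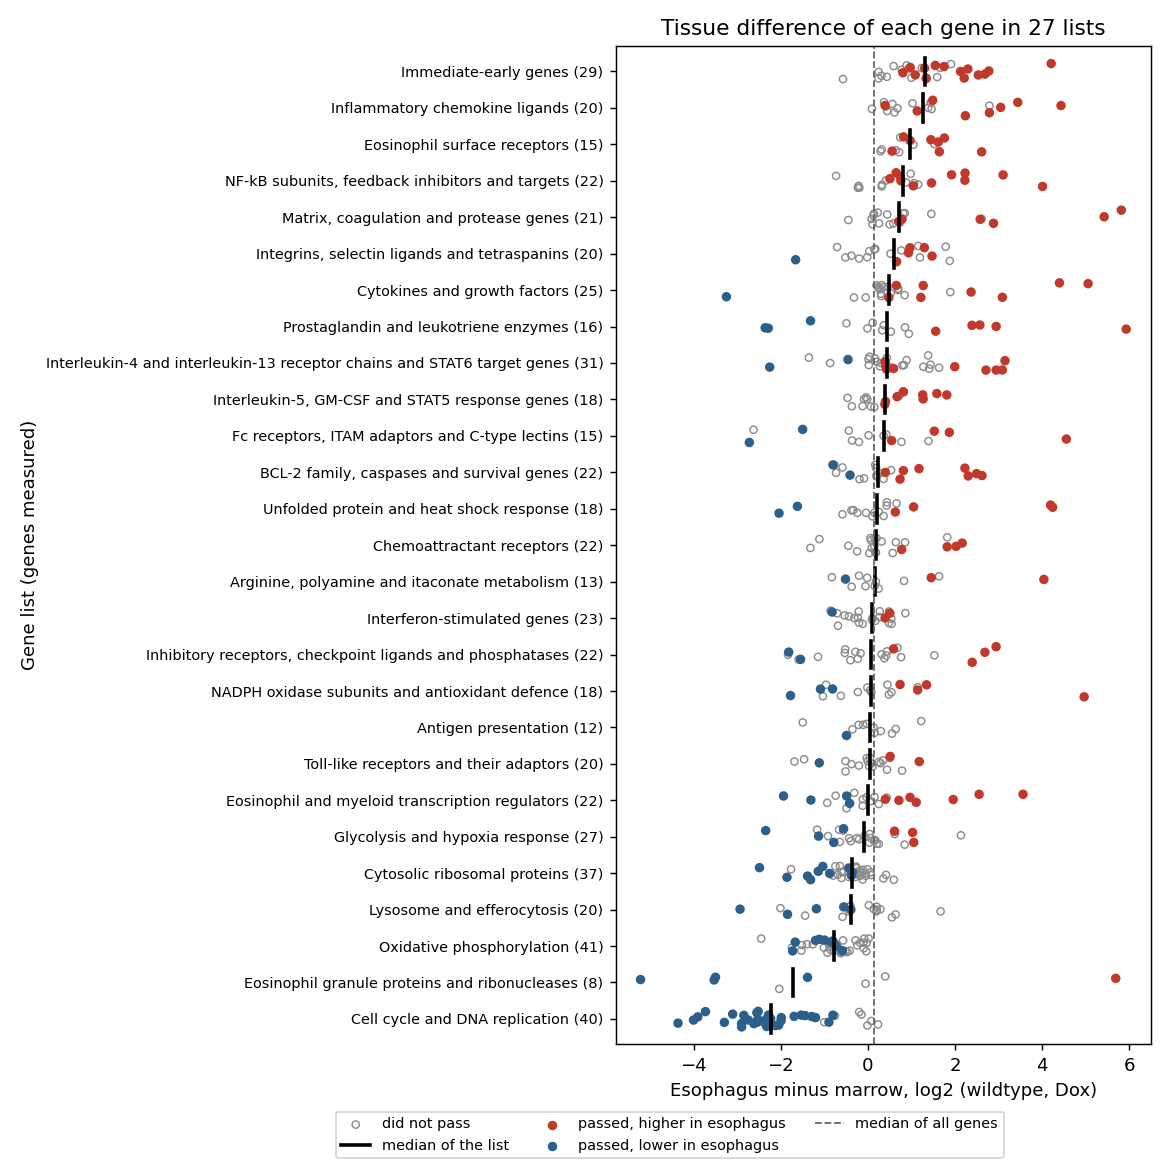
Esophagus minus marrow difference (log2) of each gene in 27 lists, wildtype with Dox, ordered by the list's median (black bar). Filled points passed at an adjusted p under 0.05 (red higher, blue lower in the esophagus), open points did not, and the dashed line is the median of all genes, 0.14. Immediate-early genes (median 1.30) stand at the top and cell cycle genes (-2.22) at the bottom.

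Some of the lowest genes belong to no list. Ankrd28, a subunit that targets protein phosphatase 6, had -3.50, -4.84 and -4.48 in the esophagus, against 0.28, 0.30 and 0.02 in marrow (-4.47 ± 0.34, adjusted p = 0.00160). Mrpl42, a protein of the mitochondrial ribosome, had -5.02, -1.96 and -5.11 in the esophagus, against 0.01, 0.26 and 0.39 in marrow. Its array of replicate 2 stood 3 units above the other two, and the difference of -4.25 ± 0.85 passed narrowly (adjusted p = 0.0314). Without esophageal replicate 3 or any 1 of the marrow arrays it did not (adjusted p up to 0.103).

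The same tissue difference was measured in Pirb-/- mice on 6 arrays that share none with the wildtype comparison. There 4451 genes (20.1%) passed, 2158 higher (9.73%) and 2293 lower (10.3%). Without knockout marrow replicate 1 or 3 it was 2760 and 2804. Replicates were closer in those arrays, with correlations across genes of 0.792 to 0.832 in the esophagus and 0.532 to 0.599 in marrow. Of the 1428 genes higher in wildtype, 614 also passed as higher in the knockout, which is 43% of the wildtype calls and 28.5% of the knockout's. Of the 1560 genes lower in wildtype, 1121 passed as lower in the knockout, 71.9% and 48.9% of the 2 lists. Across all genes the wildtype and knockout differences had r = 0.84, given as a description, since genes are not independent replicates. Ptgs2 differed by 5.94 in wildtype and 5.98 in the knockout, Serpinb2 by 5.82 and 6.16, Camp by -6.33 and -6.20 and Epx by -3.50 and -3.50. The cell cycle list had a median of -2.22 in wildtype, with 32 of 40 lower, and -2.38 in the knockout, with 35 lower. The eosinophil receptor list had 8 of 15 higher in wildtype and 14 in the knockout, and those of the knockout included Il5ra (1.05 in wildtype and 2.44 in the knockout), Siglecf (0.32 and 1.14) and Ccr3 (0.64 and 1.02). That list includes the sorting gate genes Siglecf, Ccr3 and Ptprc and the deleted gene Pirb, so its counts rest partly on the gate and the genotype.

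The difference between the wildtype and knockout tissue differences was tested over the 12 Dox arrays. It passed in 5 of 22180 genes (0.0225%) and had an unadjusted p under 0.05 in 1979 (8.92%). Parp6, a mono-ADP-ribosyltransferase, had -1.11, -0.98 and -1.12 in the wildtype esophagus, against 0.01, -0.01 and 0.11 in wildtype marrow, and it had 0.56, 0.77 and 0.84 in the knockout esophagus, against 0.07, 0.19 and 0.15 in knockout marrow. The tissue difference was -1.10 in wildtype and 0.58 in the knockout, a gap of -1.69, wildtype minus knockout (adjusted p = 0.000994). Ogfr, the opioid growth factor receptor, had -0.58, -0.43 and -0.63 in the wildtype esophagus, against 0.39, 0.06 and 0.30 in wildtype marrow, and 0.88, 0.58 and 0.62 in the knockout esophagus, against -0.41, 0.00 and -0.02 in knockout marrow. Its tissue differences were -0.80 in wildtype and 0.84 in the knockout, a gap of -1.64 (adjusted p = 0.0336). Both genes thus fell in the wildtype esophagus and rose in the knockout esophagus, though the wildtype call of Ogfr ended without single arrays (adjusted p up to 0.0564). Suz12, a core subunit of the Polycomb repressive complex PRC2, differed by -2.16 in wildtype and -0.55 in the knockout, a gap of -1.60 (adjusted p = 0.0273). Hspa9, the mitochondrial chaperone mortalin, differed by -2.09 and -0.52, a gap of -1.57 (adjusted p = 0.0427). Tgfbi rose in both, by 0.79 in wildtype and 2.04 in the knockout, a gap of -1.25 (adjusted p = 0.00169). With any 1 of the 12 arrays left out, Parp6 and Tgfbi passed each time (adjusted p up to 0.00847 and 0.0142), while Suz12, Ogfr and Hspa9 did not always (up to 0.110, 0.111 and 0.176). Without replicate 1, 2 or 3 of the wildtype esophagus, 207, 17 and 10 genes passed, and without replicate 3 of the knockout esophagus 18. Leaving out any 1 of the other 8 arrays gave 2 to 5. In limma, 0 genes passed with a replicate block, where 2001 had an unadjusted p under 0.05, and 0 after quantile normalization, where 1322 had. Quantile normalization brought the gap to -1.11 in Parp6 (adjusted p = 0.0544), -0.77 in Suz12 (adjusted p = 0.475) and -0.77 in Hspa9 (adjusted p = 0.359). In Tgfbi it was -1.08 (adjusted p = 0.424). In Ogfr the gap stayed at -1.61, but its SE rose from 0.19 to 0.378 (adjusted p = 0.517). Ogfrl1, next in order of p, fell in both genotypes, by 3.71 in wildtype and 1.82 in the knockout.

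**Figure D4:**
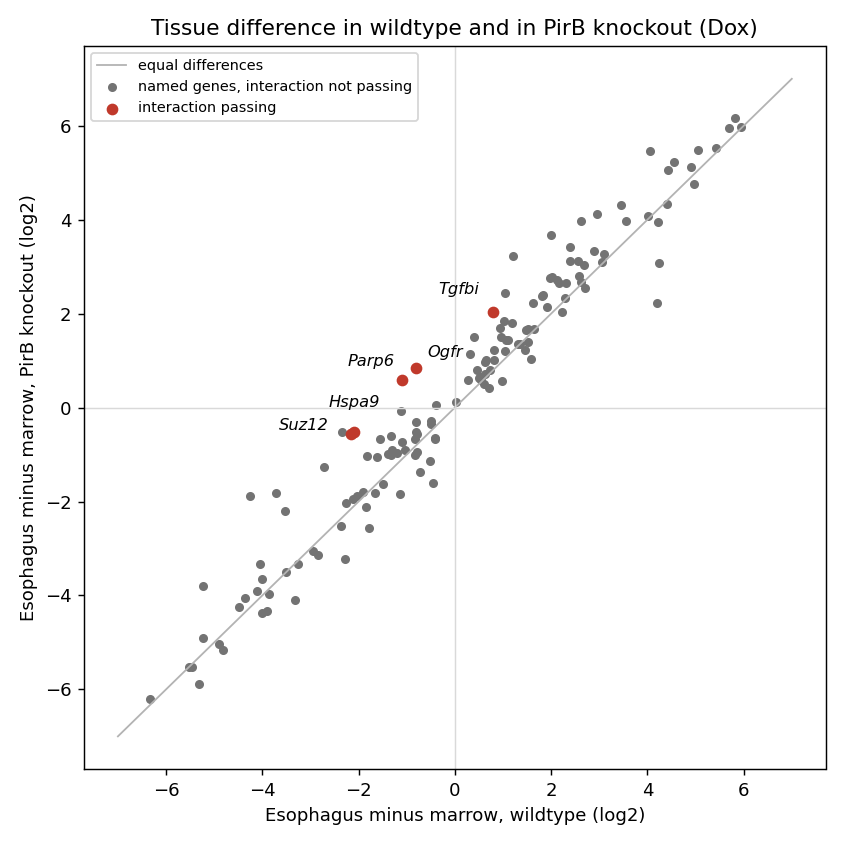
Tissue difference (log2) in wildtype, x axis, against that in the Pirb knockout, y axis, for the named genes. Grey points are genes whose interaction did not pass, red points the 5 that passed, and the line marks equal differences; Parp6 and Ogfr lie below 0 in wildtype and above 0 in the knockout.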

How the data were processed

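RNA of sorted eosinophils was extracted with a column kit, amplified and hybridised to Affymetrix mouse gene arrays, per the labels' protocols. The authors deposited 1 log value per probe set and array, taken here as log2, which had been made with Expression Console per the submitters' processing notes. Their log base and the normalization between arrays are not given in the sources used here. They are centred per probe set: in 97.1% of probe sets the middle pair of values is equal and opposite (tolerance 2e-05), as for the median of 18 arrays, of which 17 were analysed.

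Of 33793 probe sets, 23521 carry 1 gene symbol, 1814 several and 8458 none. Symbols were updated through RefSeq of GRCm38.p6 (23328 matched), and probe sets of a gene were averaged (1082 of 22180 genes had several). Tissue differences, esophagus minus marrow, were fitted with limma 3.58.1 in R 4.3.3 (lmFit, eBayes) on the 6 wildtype Dox arrays, with Benjamini-Hochberg adjustment over all 22180 genes and a threshold of 0.05. The same fit was made on 6 knockout arrays, and the interaction was tested on 12. The fit was run on simulated data with equal spread in both tissues, as a check of the signs and sizes of added differences. That run does not show the rate of false calls at the unequal spread of the real arrays.

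Named genes were, of the passing genes whose tissues did not overlap, the 12 highest and 12 lowest differences (leaving out predicted genes, clones and small RNAs). Added to these were, in each list, the 3 passing members with the smallest p in each direction (or 1 where none passed), the genes of the sorting gate, Epx, Prg2, Il5ra, Pirb, Il4ra and Il13ra1, and the 6 genes with the smallest interaction p. Alox15, Alox5, Arg1, Birc3, C1qa, C1qb, Ccl11, Ccl17, Ccl24, Ccne1, Cdk2, Chil3, Clec4d, Csf1r, Csf3r, Ctss, Cxcr2, Cxcr4, Ear6, Eif2s3y, Etv6, Fas, Fn1, Fos, Gapdh, Gata1, Gata2, Hbegf, Hexa, Hspb1, Il13, Il4, Il5, Il6, Jun, Kdm5d, Ltc4s, Ly6g, Mmp9, Ms4a2, Mvb12b, Myc, Ncf1, Nfkb2, Osm, Pdcd1lg2, Relb, Rnase2b, S100a8, Sprr1a, Tgm2, Thbd, Timp1, Tnf, Uty and Xist were named after their values were seen, and so were the genes whose promoters are printed. The members and lists were chosen with earlier results of these data known.

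Promoter windows (20611, of 16990 genes) were searched on both strands, and matches of different motifs may overlap. No pair of replicates agreed in more than 0.0225% of genes. Nothing says that replicates came from separate animals, so a p-value reflects the scatter of these 3 samples a group, which may be technical. The number of arrays limits the precision, and an exact permutation test of 3 against 3 arrays cannot give a p under 0.1. Alternatives were array weights, other scalings, other probe set rules, a replicate block, robust eBayes, a test against a log2 difference of 1, a Y-linked covariate, wider sets of arrays and leaving out each array.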

Additional observations from a re-analysis of the deposited data

Results flagged for a closer look

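In 5 genes the tissue difference in wildtype mice differed from that in Pirb-/- mice by the interaction test in limma over the 12 Dox arrays. The gap, wildtype minus knockout on the log2 scale, was -1.69 for Parp6 (adjusted p = 0.000994), -1.25 for Tgfbi (adjusted p = 0.00169), -1.60 for Suz12 (adjusted p = 0.0273), -1.64 for Ogfr (adjusted p = 0.0336) and -1.57 for Hspa9 (adjusted p = 0.0427). In Parp6 and Ogfr the wildtype difference was negative and the knockout difference positive. Suz12 and Hspa9 were lower in the esophagus of both genotypes, and Tgfbi was higher in both. The calls of Suz12, Ogfr and Hspa9 were lost without single arrays. None of the 5 calls held after quantile normalization (adjusted p 0.0544 for Parp6 and 0.424 for Tgfbi) or with a replicate block (0.122 and 0.290).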

How the results depend on the processing

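Fewer or more genes passed in wildtype under several settings, against 2988 (1428 higher, 1560 lower). The counts were 8092 (5569 higher, 2523 lower) with 16 arrays in 1 fit (all but an outlying marrow array of knockout mice without Dox), 1619 (318 higher) after quantile normalization, 2296 (616 higher) after median centring, 186 (39 higher, 147 lower) when tested against a log2 difference of 1, and 1060 (353 higher, 707 lower) with the Y-linked covariate. Leaving out 1 array gave 832 to 4668 in all, 171 to 2754 higher and 661 to 1914 lower, with 1 sample fewer in each such fit. The share of calls that were higher was 47.8% as reported, 26.8% after median centring and 19.6% after quantile normalization. Median centring lowered the median difference of all genes to 0.03, from 0.14 as deposited. None of the 2988 calls changed sign under these settings, except 10 with the lowest-numbered probe set per gene.

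Deviations of same-numbered arrays had r = 0.119, -0.0375 and 0.0414 in wildtype and 0.0162, -0.0566 and -0.03 in the knockout. Differently numbered wildtype arrays had r from -0.143 to 0.111. These values cannot decide whether same-numbered arrays came from the same mice, and the labels do not say. With a replicate block 1195 genes passed (281 higher, 914 lower), 152 of the list members and 0 interactions. Of list members, 234 passed as reported, 385 with 16 arrays, 62 against a log2 difference of 1, 145 with the Y-linked covariate and 117 to 282 with 1 array left out. Of the genes named by rule, 134 passed as reported and 50 against a log2 difference of 1. Without 1 array, 2760 to 3884 genes passed in the knockout and 2 to 207 in the interaction, which gave 0 after quantile normalization.

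Some signs turned. Bcl2 (0.15) and Npc1 (0.0067) did with the lowest-numbered probe set, Csf1r (0.37) and Tnf (-0.36) with the Y-linked covariate, and Il4ra after median centring (-0.091), quantile normalization (-0.18) and with that covariate (-0.014). With 1 array left out, Csf1r ran from -0.56 to 0.11, Il13ra1 from -0.067 to 0.63, Il4ra from -0.11 to 0.24 and Tnf from -0.088 to 0.58. The cause was not tested. Of the 160 named genes that passed, 50 did so under all 17 settings. The values give no signal over background, so which genes lie near it is unknown.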

Other observations

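Sensory receptor genes were measured as well, although eosinophils are not known for their use. The 1105 olfactory receptor genes had a median esophagus minus marrow difference of 0.108 in wildtype, with 990 above 0, 26 that passed as higher (2.35%, against 6.44% of all genes) and 1 as lower. The 285 vomeronasal receptor genes had a median of 0.0815, with 262 above 0 and 3 that passed, all higher (1.05%). In knockout mice the 2 medians were 0.0346 and 0.027, and those of all genes were 0.136 in wildtype and 0.06 in the knockout. These classes were chosen after seeing the data.

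Small RNA genes passed as higher at shares near that of all genes. Of 483 microRNA genes, 37 passed as higher in the wildtype esophagus (7.66%) and 2 as lower, with a median of 0.164 and 423 above 0. Over all 22180 genes 7.03% passed as lower and 15518 were above 0, so microRNA genes were called lower less often. Of 73 small nucleolar RNA genes, 3 passed as higher (4.11%) and 5 as lower, with a median of -0.0856 and 28 above 0. In the knockout the medians were 0.0658 and -0.094. Each gene's probes may read a host transcript as well.

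Mvb12b, a subunit of the ESCRT-I sorting complex, had -0.43, -0.48 and -0.33 in the wildtype esophagus, against -0.14, -0.02 and 0.09 in wildtype marrow (-0.39 ± 0.09, adjusted p = 0.0476). It had 1.32, 0.93 and 0.49 in the knockout esophagus, against -0.23, -0.10 and 0.13 in knockout marrow (0.98 ± 0.22, adjusted p = 0.0292). The difference between the tissue differences did not pass (-1.37 ± 0.25, adjusted p = 0.196). The wildtype call ended without any array that was left out (adjusted p 0.0615 to 0.14). Mvb12b was chosen after its values were seen.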
